A study of Mus musculus with 8 samples.

Results

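Necroptosis and death receptor genes were followed in the fat that surrounds the thoracic aorta (thoracic perivascular adipose tissue), in a group of mice labelled RictoraP2KO and a control group. The set was 7 genes, Tnfrsf1a, Fadd, Casp8, Ripk1, Ripk3, Zbp1 and Mlkl. They were chosen by their place in the pathway, with earlier results of these data known. Mlkl was the exception, picked on these data because its values in the 2 groups did not overlap. Of the 7, 6 had a probe set paired with that symbol alone, out of 18782 genes so represented, and each of the 6 had 1 such probe set. Ripk1 was not analysed here.

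Tumour necrosis factor binds the receptor encoded by Tnfrsf1a, which gathers the kinase RIPK1 into a complex that normally drives survival and inflammatory signalling. When that complex is disturbed, FADD joins RIPK1 to caspase-8 and the cell dies by apoptosis. Where caspase-8 is blocked, RIPK1 or the nucleic acid sensor ZBP1 instead engages RIPK3 through a shared binding motif called RHIM, and RIPK3 phosphorylates MLKL, which then breaks the plasma membrane. Death of this lytic kind is called necroptosis. It releases cell contents that provoke inflammation, and macrophages are among the cells known to undergo it.

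The knockout mice carried the genotype RictoraP2KO and the controls carried floxed Rictor alone (Rictorfl/fl), and each group had 4 arrays. Rictor defines mTOR complex 2, a kinase complex of insulin signalling, and the Cre driver, the promoter of aP2 (Fabp4), is active in fat cells and is known to be active in some other cells, macrophages among them. The mice of both groups were males aged 17 to 22 weeks, starved overnight and killed at 9 am, with no treatment. The labels do not say whether each array held the RNA of 1 animal, so p-values measure only the spread between these samples, which may be technical. The series title gives the effect of losing Rictor in brain and fat on peripheral clock genes and blood pressure as the subject of the study.

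Values are log2 RMA signals, a normalised summary of the probes of a gene, on Affymetrix mouse gene arrays. Each difference is the RictoraP2KO mean minus the control mean, in log2 units, with its standard error (SE). The median probe set stood at 3.76 on every array. The labelled tissue showed in its markers, with Adipoq (adiponectin) between 10.85 and 11.08 and Ucp1, the uncoupling protein of brown fat, between 11.32 and 12.01 over the 8 arrays. The Rictor signal did not fall with the label RictoraP2KO (6.68 ± 0.08 against 6.54 ± 0.06, SD, n = 4; limma adjusted p = 0.685), so every direction below rests on the labels. Where the Rictor probes lie relative to the deleted part of the gene is not known here, so this value is no check of the deletion itself. Some arrays held more signal of another tissue than the rest, namely skeletal muscle and B cell markers in RictoraP2KO replicate 2, lung epithelial markers in control replicate 2 and neuron markers in control replicate 3. Heart muscle markers were uneven in both groups, at -1.39, 1.75, -0.58 and 0.07 in RictoraP2KO replicates 1 to 4 and 0.31, 0.76, -1.03 and 0.11 in control replicates 1 to 4 (mean of 7 genes, each centred on its average over the 8 arrays). Each member's difference is therefore also given without RictoraP2KO replicate 2 and control replicates 2 and 3, called the 3 arrays below. In bulk tissue, a change in the number of cells of a type and a change in RNA per cell cannot be told apart.

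Of the 6 measured members, 0 passed the test across the array (limma, Benjamini-Hochberg adjustment over 28371 probe sets, threshold 0.05), where 1 probe set in all passed, or 0.00352% of those tested. Mlkl is left out of the count before adjustment, since this contrast chose it. Of the other measured members only Zbp1 had an unadjusted limma p under 0.05, where 6.48% of all genes had one. Differences of 5 members were above 0 and that of Ripk3 was below 0, with a median of 0.12 where the median of all genes was -0.01. Mlkl and Zbp1 were the only 2 of the 6 whose groups did not overlap, both higher in the RictoraP2KO arrays. Over all genes, 1.5% did not overlap in that direction and 2.07% in the other. Mlkl was picked for this property, and it is also among the 5 above 0 and in the median of 0.12. Nothing is read from its part of these values.

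Mlkl encodes the pseudokinase that carries out necroptosis by permeabilising the plasma membrane. Its signal was 5.15, 5.08, 4.86 and 5.00 in RictoraP2KO replicates 1 to 4 and 4.70, 4.58, 4.76 and 4.67 in control replicates 1 to 4. Every RictoraP2KO array was above every control array, with a gap of 0.107 between the lowest of the one group (replicate 3) and the highest of the other (replicate 3). The group means were 5.02 ± 0.12 and 4.68 ± 0.07 (SD, n = 4), a difference of 0.35 (SE 0.075), or 1.27-fold. No test is given, since this contrast chose the gene. Leaving out single arrays gave differences from 0.30 (RictoraP2KO replicate 1 omitted) to 0.40 (replicate 3 of that group omitted), and 0.32 (SE 0.106) without the 3 arrays named above.

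**Figure D1:**
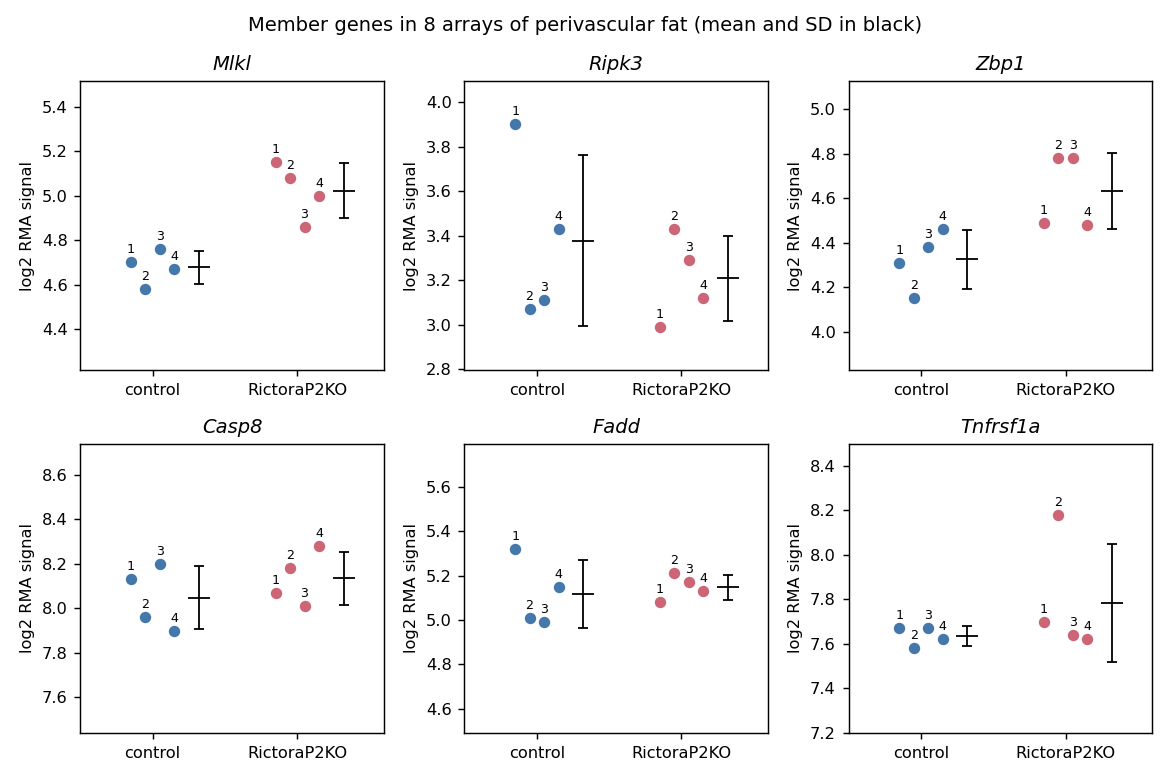
Log2 RMA signal (vertical axis, the same height of scale in every panel) of the 6 measured members in the 4 control and 4 RictoraP2KO arrays, with each replicate numbered and the group mean and SD in black. Mlkl and Zbp1 show no overlap between the groups, with Zbp1 separated by 0.016 and Mlkl by 0.107, and Tnfrsf1a has 1 high array, RictoraP2KO replicate 2 at 8.18.

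The promoters of Mlkl and of its activating kinase Ripk3 are shown because these genes form the last step of the pathway. They were also picked because their differences had opposite signs. The Ripk3 sign was not firm, at -0.17 (SE 0.183, limma adjusted p = 0.86), or 0.00525 without control replicate 1. No contrast in regulation is read from the windows. Each window is the 250 bases before the gene's start, from RefSeq on GRCm38.p6, read 5′ to 3′ along the gene. The windows lie at chr8:111338206-111338455 (minus strand) for Mlkl and chr14:55788858-55789107 (minus strand) for Ripk3. Capitals mark the E-box CACGTG, to which the clock factors CLOCK and BMAL1 are known to bind.
Mlkl: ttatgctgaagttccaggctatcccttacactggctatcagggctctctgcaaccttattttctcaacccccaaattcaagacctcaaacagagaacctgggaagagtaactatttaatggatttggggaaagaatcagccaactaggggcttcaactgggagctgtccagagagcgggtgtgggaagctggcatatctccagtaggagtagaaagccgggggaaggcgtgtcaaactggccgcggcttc
Ripk3: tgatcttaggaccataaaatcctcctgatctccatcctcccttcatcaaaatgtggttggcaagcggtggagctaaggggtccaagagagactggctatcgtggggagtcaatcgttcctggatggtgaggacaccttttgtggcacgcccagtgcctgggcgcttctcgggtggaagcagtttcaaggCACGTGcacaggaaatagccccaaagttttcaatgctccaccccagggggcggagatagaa

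The Ripk3 window held 1 E-box, 61 to 56 bases before the start, and the Mlkl window held none; 6.0% of 32851 promoters of the same length held one. The core of the interferon-stimulated response element was searched on both strands, as were all motifs, and occurred in neither window, against 3.0% of all promoters. The same held for the STAT site TTCNNNGAA (7.0% of all promoters) and for the NF-κB consensus (3.9%). Promoters were matched for 6 of the 7 members, all but Zbp1. Among the other measured members, Tnfrsf1a held 1 STAT site, 244 to 236 bases before its start, and Casp8 and Fadd held none of the 4 motifs. The motifs do not overlap in these windows. A match describes letters in a window and not a site in use.

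Ripk3 encodes the kinase that phosphorylates MLKL. Its signal was 2.99, 3.43, 3.29 and 3.12 in RictoraP2KO replicates 1 to 4 and 3.90, 3.07, 3.11 and 3.43 in control replicates 1 to 4. The groups overlapped widely, and all values but that of control replicate 1 lay under the array median of 3.76. The difference was -0.17 (SE 0.183; limma adjusted p = 0.86), with a 95% interval from -0.58 to 0.25. Its sign rested on the 1 high control array: without control replicate 1 the difference was 0.00525, and without control replicate 2 it was -0.27. Without the 3 arrays with signal of another tissue it was -0.53 (SE 0.165, limma adjusted p = 0.969). Only control replicates 1 and 4 then remained as controls, so the high array weighed more in that value.

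Zbp1 encodes a sensor of left-handed nucleic acid that is induced by interferon and can engage RIPK3 without a death receptor. It stood at 4.49, 4.78, 4.78 and 4.48 in RictoraP2KO replicates 1 to 4 and at 4.31, 4.15, 4.38 and 4.46 in control replicates 1 to 4. The groups did not overlap, but by only 0.016, between RictoraP2KO replicate 4 and control replicate 4. The means were 4.63 ± 0.17 and 4.32 ± 0.13 (SD, n = 4), a difference of 0.31 (SE 0.1) with a 95% interval from 0.08 to 0.53. This did not pass (limma adjusted p = 0.651). The adjusted p ran from 0.582 to 0.969 over the alternatives, and the difference was 0.20 without the 3 arrays, against 0.25 to 0.36 when 1 array was left out.

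The order of the arrays was not the same in both genes. Among the RictoraP2KO arrays, replicate 3 was the lowest for Mlkl and, with replicate 2, the highest for Zbp1, and replicate 1 was the highest for Mlkl and near the lowest for Zbp1. With each value centred on its group mean, Pearson's r of Mlkl over the 8 arrays was -0.13 with Zbp1, -0.08 with Fadd, -0.06 with Ripk3, 0.39 with Tnfrsf1a and 0.43 with Casp8. These values describe 8 arrays that share a normalisation, and no test is attached.

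Casp8 and Fadd encode the protease of the apoptotic branch and the adaptor that recruits it. Casp8 was at 8.07, 8.18, 8.01 and 8.28 in the RictoraP2KO arrays and at 8.13, 7.96, 8.20 and 7.90 in the control arrays, in replicate order. These values overlapped, and the difference was 0.09 (SE 0.089; limma adjusted p = 0.849) with a 95% interval from -0.11 to 0.29. Casp8 moved with single arrays, from 0.0403 without RictoraP2KO replicate 4 and 0.0405 without control replicate 4 to 0.14 without control replicate 3, and its difference was 0.11 without the 3 arrays. Fadd was at 5.08, 5.21, 5.17 and 5.13 against 5.32, 5.01, 4.99 and 5.15, where the highest and the lowest of the 8 values were both control arrays. Its difference was 0.03 (SE 0.082; limma adjusted p = 0.953), with a 95% interval from -0.15 to 0.22, and its sign turned to -0.11 without the 3 arrays.

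Tnfrsf1a encodes the main death receptor for tumour necrosis factor. It stood at 7.70, 8.18, 7.64 and 7.62 in RictoraP2KO replicates 1 to 4 and at 7.67, 7.58, 7.67 and 7.62 in control replicates 1 to 4. All arrays but RictoraP2KO replicate 2 lay within 7.58 and 7.70, and that array was also the highest in B cell and skeletal muscle markers, at 0.84 and 1.28 on the gene-centred scale described with the markers below. Whether these go together was not tested. The difference was 0.15 (SE 0.120; limma adjusted p = 0.819) with a 95% interval from -0.12 to 0.42, and it was 0.0167 without that array and 0.00667 without the 3 arrays.

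**Figure D2:**
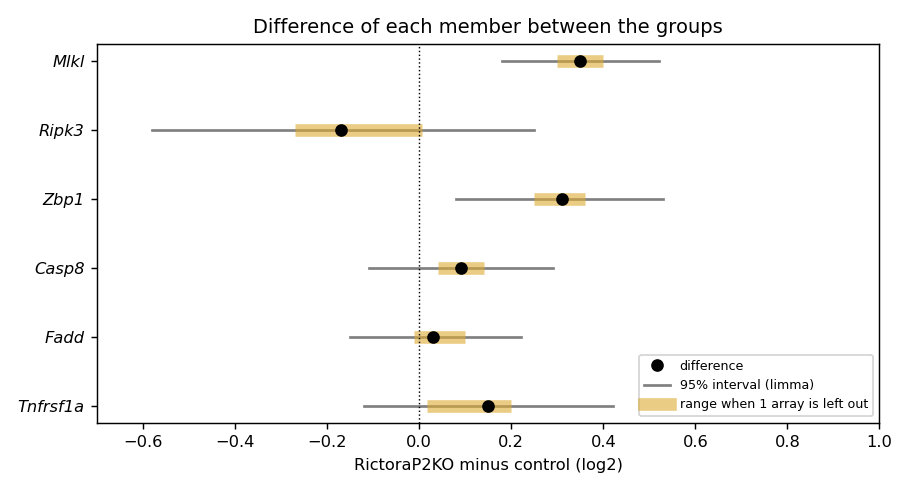
Difference of each member, RictoraP2KO minus control on the log2 scale (horizontal axis), as a point with its 95% interval in grey and, in yellow, the range over the 8 omissions of 1 array. The yellow ranges of Ripk3 and Fadd cross 0, and that of Tnfrsf1a reaches down to 0.0167. Nothing is read from the interval of Mlkl, since this contrast chose the gene.

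The rest of the pathway was read from 8 lists of 94 genes, of which 86 had a probe set of their own. In each of the 8 lists 0 genes passed in either direction, and the smallest limma adjusted p of the 86 was 0.605. Before adjustment 8 of the 86 had p under 0.05, or 9.3%, where all genes gave 6.48%. Differences above 0 numbered 49 of 86, with a median of 0.02 beside -0.01 for all genes. The groups did not overlap in 4 of the 86, all higher in the RictoraP2KO arrays, or 4.65%, where 1.5% of all genes did not overlap in that direction. These were Tlr4, Ifih1, Cycs and Chmp2a, described with their lists below.

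Ligands and the other death receptors had differences of either sign. Of 6 ligands 5 were above 0 (median 0.05). Tnf itself was low, at 3.01 ± 0.08 against 2.84 ± 0.29 (SD, n = 4), and Fasl, the ligand of Fas, was at 1.92 ± 0.09 against 1.83 ± 0.05 (SD, n = 4), so both lay under the array median. Tnfsf10, which encodes TRAIL, differed by -0.30 (SE 0.223), or -0.46 without RictoraP2KO replicate 3 and -0.16 without the 3 arrays. Of 7 receptors 3 were above 0 (median -0.01). Fas, the receptor that recruits FADD directly, differed by -0.29 (SE 0.152) and was at 6.88, 6.35, 6.93 and 6.84 against 6.97, 7.35, 6.81 and 7.04, in replicate order. The Fas difference was -0.16 without RictoraP2KO replicate 2, -0.19 without control replicate 2 and -0.12 without the 3 arrays. The TRAIL receptor gene Tnfrsf10b differed by -0.07 (SE 0.182) and the second receptor for tumour necrosis factor, Tnfrsf1b, by 0.07 (SE 0.076). Adjusted limma p-values of these 6 genes ran from 0.736 to 0.95.

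In the complex at the receptor, 11 of 19 genes were above 0 (median 0.02) and 1 had an unadjusted p under 0.05. This was Birc3, a ubiquitin ligase that keeps RIPK1 in its survival form, at 5.84, 5.67, 5.53 and 5.83 in the RictoraP2KO arrays and 5.50, 5.53, 5.34 and 5.46 in the control arrays. Its difference was 0.26 (SE 0.086; limma adjusted p = 0.651), and only RictoraP2KO replicate 3 reached down to the control values. The related ligase Birc2 differed by 0.14 (SE 0.086). The adaptor genes Tradd and Traf2 differed by -0.15 (SE 0.104) and -0.18 (SE 0.083), and neither passed. Of 7 genes for removal or control of ubiquitin chains 4 were above 0 (median 0.02). Cyld, which frees RIPK1 for death signalling, differed by 0.02 (SE 0.080), and Tnfaip3, which encodes the brake A20, by -0.07 (SE 0.148).

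In the caspase-8 arm 3 of 7 measured genes were above 0 (median -0.03). An unadjusted limma p under 0.05 was found for 2 of the 7, Cycs among them, or 28.57%, where all genes gave 6.48%. Cflar, which encodes the partner cFLIP that restrains caspase-8, was at 6.54 ± 0.11 against 6.47 ± 0.11 (SD, n = 4), a difference of 0.07, or 0.13 as the mean of its 3 probe sets. Bid, a caspase-8 substrate that links to mitochondria, differed by -0.12 (SE 0.101). Cycs, which encodes cytochrome c of the respiratory chain, a trigger of apoptosis once released, was at 11.29, 11.40, 11.25 and 11.25 against 11.11, 11.18, 11.08 and 11.11. Its groups did not overlap, and its difference was 0.18 (SE 0.058; limma adjusted p = 0.651), or 0.0473 as the mean of its 3 probe sets. The lowest difference of this list was -0.24, for Casp9, the protease that released cytochrome c helps to activate. Cycs has processed copies in the genome, so its signal may be shared with them.

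Among inputs to the RHIM proteins, sensors of nucleic acid and interferon signalling, 9 of 14 genes were above 0 (median 0.05). An unadjusted limma p under 0.05 was found for 4 of the 14, or 28.57%, where all genes gave 6.48%. Tlr4 and Ifih1, described next, were among the 4. Tlr4, the receptor for lipopolysaccharide, was at 6.21, 6.11, 6.07 and 5.93 in the RictoraP2KO arrays and 5.80, 5.81, 5.75 and 5.86 in the control arrays, with no overlap. Its difference of 0.28 (SE 0.069; limma adjusted p = 0.605) was the highest of the 86. Ifih1, which encodes the RNA sensor MDA5, was at 6.50, 6.33, 6.37 and 6.34 against 5.97, 6.15, 6.06 and 6.33, so that control replicate 4 came close to the RictoraP2KO arrays. Its difference was 0.25 (SE 0.084; limma adjusted p = 0.651). At the other end of the list Mavs, the adaptor of MDA5, differed by -0.27, and it did not pass. Tlr3, whose adaptor carries a RHIM, differed by 0.04 (SE 0.088), and that adaptor, Ticam1, by 0.01 (SE 0.141). Adar, the RNA editing enzyme that keeps RNA from triggering ZBP1, differed by 0.12 (SE 0.086), and the interferon-induced factor gene Irf1 by -0.02 (SE 0.105).

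Of the partners of MLKL and the genes of membrane repair, 4 of 15 were above 0 (median -0.04). The ESCRT-III subunit genes Chmp2a and Chmp4b, of the machinery that sheds damaged membrane, were among the 4. Chmp2a was at 8.01, 8.17, 8.01 and 8.03 against 7.90, 7.95, 7.91 and 7.79, with no overlap and a difference of 0.16 (SE 0.063; limma adjusted p = 0.668). Chmp4b differed by 0.10 (SE 0.067) and the mitochondrial phosphatase gene Pgam5 by -0.03 (SE 0.092). In the list of other lytic death, which covers pyroptosis and ferroptosis, 10 of 11 genes were above 0 (median 0.10) and 0 had an unadjusted p under 0.05. Gsdmd, the pore former of pyroptosis, differed by 0.06 (SE 0.086), and Casp1, the inflammasome protease, by 0.21 (SE 0.118), or 0.14 without control replicate 1.

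**Figure D3:**
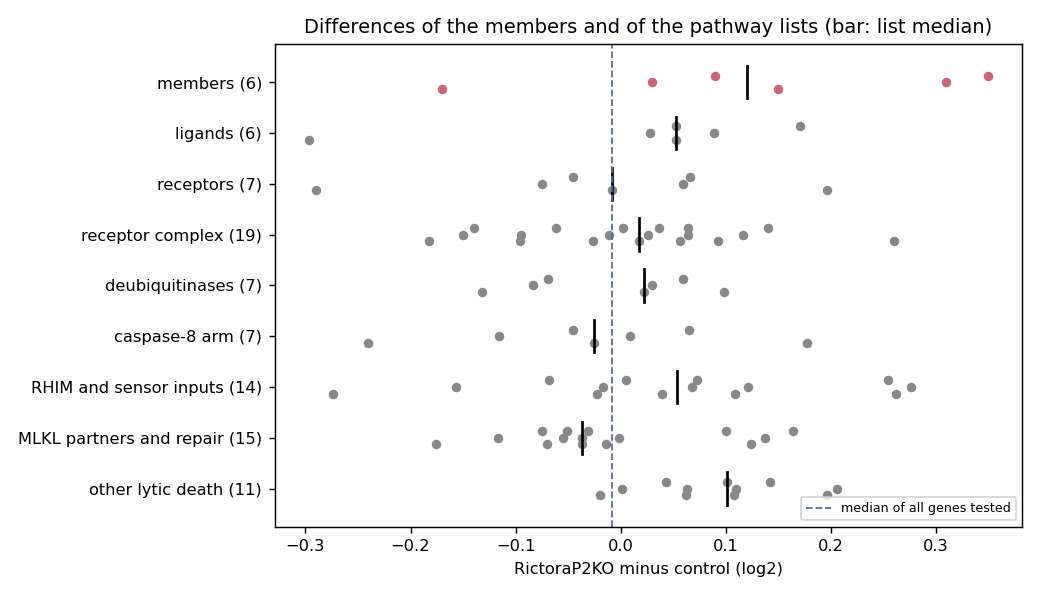
Difference of every measured gene, RictoraP2KO minus control on the log2 scale (horizontal axis), for the 6 members in red and the 8 pathway lists in grey, with the number of genes in brackets, the list median as a black bar and the median of all genes as a dashed line. Over the 8 lists, medians lie between -0.04 and 0.10 and single genes between -0.30 and 0.28. The 6 members lie between -0.17 and 0.35, with a median of 0.12.

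Marker lists of other cell types were summarised per array by first subtracting from each gene its average over all 8 arrays and then averaging over the genes. For 13 macrophage markers this mean was 0.37, 0.20, -0.24 and 0.20 in RictoraP2KO replicates 1 to 4 and -0.02, -0.22, -0.26 and -0.03 in control replicates 1 to 4. Of these markers 12 of 13 were above 0. The sum of their log2 values ran from 81.4 to 89.3 in the RictoraP2KO arrays and from 81.1 to 84.2 in the control arrays. The mannose receptor gene Mrc1 differed by 0.43 and the macrophage receptor gene Adgre1 by 0.43, while Cd68 differed by 0.01. RictoraP2KO replicate 3, the lowest array of its group for Mlkl, was also the lowest for these markers, and replicate 1 was the highest for both. The control arrays did not follow that order. Control replicate 3 was the highest of its group for Mlkl (4.76) and the lowest for these markers (-0.26). The part of macrophage content in the Mlkl difference was not tested.

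Other immune lists were uneven between the arrays. Neutrophil markers ran from -0.13 to 0.40 in the RictoraP2KO arrays and from -0.30 to -0.05 in the control arrays (6 of 7 above 0, sums of log2 values 19.7 to 23.4 and 18.5 to 20.2). Of these, 7 of the 7 had a mean under the array median. T cell markers ran from -0.11 to 0.37 and from -0.17 to 0.01 (9 of 9 above 0, sums 28.9 to 33.2 and 28.3 to 30.0). B cell markers ran from -0.31 to 0.84 and from -0.39 to 0.10 (9 of 9 above 0, sums 29.8 to 40.2 and 29.1 to 33.5). A mean under the array median was found for 7 of 9 T cell and 5 of 9 B cell markers. Over all genes, 46.8% were above 0. Interferon response genes, of which 9 of 12 were above 0, were highest in RictoraP2KO replicate 3 at 0.31, control replicate 4 at 0.21 and RictoraP2KO replicate 2 at 0.17. Each of these arrays was also the highest of its group for Zbp1 or tied for it, at 4.78, 4.46 and 4.78. The order did not hold between the groups. RictoraP2KO replicates 1 and 4 were at -0.11 and -0.20 for these genes, with Zbp1 at 4.49 and 4.48, above every control array. Between the groups the list mean differed by 0.08 and Zbp1 by 0.31. The part of these markers in the member differences was not tested. Markers called by limma across the array numbered 0 in each list. Unadjusted limma p was under 0.05 for 3 of 13 macrophage, 3 of 7 neutrophil and 2 of 9 T cell markers. It was under 0.05 for 0 of 9 B cell markers and 1 of 12 interferon response genes, against 6.48% of all genes. Outside the immune lists, 2 of 8 endothelial and 2 of 8 fibroblast markers were under 0.05. The fat cell, brown fat, smooth, skeletal and heart muscle, lung epithelial and neuron lists had 0. Fat cell markers ran from -0.08 to 0.30 in the RictoraP2KO arrays and from -0.07 to 0.05 in the control arrays (5 of 8 above 0). Brown fat markers ran from -0.61 to 0.34 and from -0.21 to 0.27 (2 of 8 above 0). RictoraP2KO replicate 1, the highest array for Mlkl, was the highest for the fat cell markers and the lowest for the brown fat markers.

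**Figure D4:**
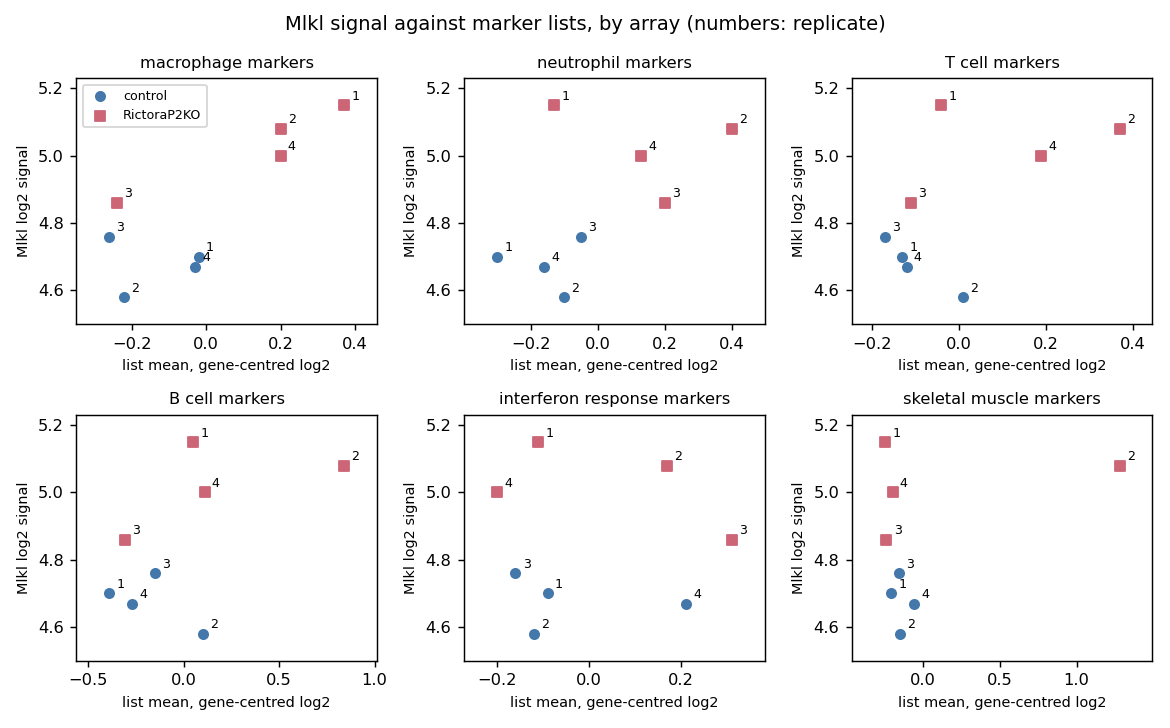
Log2 signal of Mlkl (vertical axis) against the mean of 6 marker lists (horizontal axis, gene-centred log2), with each of the 8 arrays as a point numbered by replicate, circles for control and squares for RictoraP2KO. RictoraP2KO replicates 1, 2 and 4 lie at or above 0.20 for macrophage markers, and replicate 3 lies at -0.24, among the control arrays.

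Within the groups, the genes whose pattern was most like that of Mlkl were Msr1, Atp2b1, Fbln5, Slit3 and Mapk12, out of 10403 genes with a mean above the array median. After each value was centred on its group mean, Pearson's r over the 8 arrays was 0.976 for Msr1, a scavenger receptor of macrophages, and 0.967 for Atp2b1, a calcium pump of the plasma membrane. It was 0.96 for Fbln5, an elastic fibre protein, 0.953 for Slit3, a secreted guidance protein, and 0.939 for Mapk12, a p38 kinase. Msr1 differed by 0.23 (SE 0.141; limma adjusted p = 0.767) between the groups and Mapk12 by -0.09 (SE 0.056; limma adjusted p = 0.771). These are the 5 highest of many correlations over 8 arrays and are given as a description.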

How the data were processed

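RNA of thoracic perivascular fat was hybridised to Affymetrix mouse gene arrays, 4 arrays for each of 2 groups. The authors deposited 1 log2 value per probe set and array, and the submitters' processing notes name RMA and Affymetrix Power Tools 1.10.2. RMA summarises probes after quantile normalisation, which hides a difference in total RNA output and tends to compress differences. Scanner files were not used here, so signal over background is unknown. Gene symbols came from the annotation of the platform (21158 with 1 symbol, 1881 with several, 5332 with none), and each gene was read from its probe set of highest mean.

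All 28371 probe sets were fitted by lmFit and eBayes of limma 3.58.1 under R 4.3.3 (two-sided, Benjamini-Hochberg adjustment, threshold 0.05), with no filter and no covariate, and the fit was tested on simulated data. Intervals are at the 95% level, and the number of arrays limits precision. Same-numbered arrays of the 2 groups were checked for shared deviations.

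Members and lists were chosen with earlier results of these data known. Genes named besides the members and Rictor were 26 pathway genes taken by role, of which 24 were measured, pathway genes that passed or whose groups did not overlap, and the 5 genes most like Mlkl; Adipoq, Ucp1, Mrc1, Adgre1, Cd68, Mavs and Casp9 were named outside this rule, the last 2 after their values were seen. Alternatives were a filter on dim probe sets, other normalisations and variance models, array weights, the replicate block, omission of arrays, other probe sets and another threshold.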

Additional observations from a re-analysis of the deposited data

Results flagged for a closer look

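In 94 groups of 4 values looked at, 8 had 1 array far from the other 3 (a gap to the nearest value that filled most of the group's range, above Dixon's critical value), and chance flags about 1 in 20 such groups. RictoraP2KO replicate 2 was the array in 5 of the 8. It was highest for Tnfrsf1a at 8.18, where the others of its group lay between 7.62 and 7.70, and for Chmp2a at 8.17 against 8.01 to 8.03. It was lowest for Fas at 6.35 against 6.84 to 6.93 and for Tlr3 at 4.89 against 5.20 to 5.21. Its skeletal muscle marker mean was 1.28 against -0.25 to -0.20. RictoraP2KO replicate 1 had the highest adipocyte marker mean, 0.30 against -0.08 to -0.06. Control replicate 2 had a lung epithelial marker mean of 2.90 against -0.57 to -0.30, and control replicate 3 a neuron marker mean of 1.29 against -0.21 to -0.10.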

How the results depend on the processing

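Of 101 values of the 6 members under alternatives 4 changed sign, and 0 passed the threshold among those tested. Mlkl, Zbp1, Casp8 and Tnfrsf1a stayed above 0 throughout. For Mlkl and Zbp1 no omission of arrays could have changed the sign, since their groups did not overlap. Fadd ran from -0.0106 (without control replicate 3) to 0.10 (without control replicate 1) and Ripk3 from -0.27 to 0.00525 when 1 array was left out, and Fadd was -0.11 without the 3 arrays with signal of another tissue. The 1 call across the array fell to 0 without dim probe sets, with the replicate block and without those 3 arrays, and calls ran from 0 to 5 over the omissions of 1 array (5 without RictoraP2KO replicate 1). The cause was not tested. Same-numbered arrays correlated between -0.154 and 0.087 in their deviations from the group means. The control array closest to each RictoraP2KO array had another number, at 0.148 to 0.314. These deviations also hold signal of other tissues, so the check cannot settle whether the numbers pair the samples. With the replicate block the Zbp1 limma adjusted p was 0.82 (difference 0.31), and 0 pathway genes were called. Of the 26 named pathway genes 15 kept their sign. Without the 3 arrays, differences were -0.10 for Tnf, -0.00867 for Cflar and for Adar, -0.15 for Ticam1 and -0.012 for Gsdmd, and with array weights -0.0339 for Ticam1. Ranges over the omissions of 1 array that crossed 0 were -0.19 to 0.13 for Tnfrsf10b, -0.0316 to 0.0794 for Cyld, -0.21 to 0.0499 for Tnfaip3, -0.00167 to 0.12 for Tlr3, -0.11 to 0.12 for Ticam1, -0.0782 to 0.0775 for Irf1 and -0.0753 to 0.0517 for Pgam5. Each member had 1 probe set, so averaging probe sets could change none of them. Ripk3 falls under the filter on dim probe sets and had no value there.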
